A study of Micropterus salmoides with 24 samples.

Results

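This comparison set the 4 head kidney libraries labelled Rodeo against the 4 head kidney libraries labelled control, 8 of the 24 libraries of a study of largemouth bass (Micropterus salmoides), all of them adult males. The libraries were chosen by their titles alone. Rodeo fish had been exposed for 21 days to the herbicide product Rodeo, dosed to 10 mg/L of glyphosate, and control fish were kept in clean water for as long. The remaining head kidney group, of 4 libraries, came from fish held in glyphosate itself at 10 mg/L for 21 days, and 12 further libraries, 4 for each treatment, came from the trunk kidney. Each treatment had 4 tanks with 4 fish in each. The labels do not give the tank or sequencing run of a library, so a p-value here is measured against the spread among libraries, whatever its source.

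In bony fish the head kidney is a blood-forming and immune organ that lacks most of the nephrons. It also holds interrenal cells, which make cortisol, and chromaffin cells, which make catecholamines. The trunk kidney behind it carries the filtering and salt-handling tubules and also contains blood-forming tissue. Glyphosate blocks an enzyme of aromatic amino acid synthesis that plants and many microbes have and animals lack. The study's title names endocrine, immune and renal toxicity as the question, and the head kidney is where the endocrine and immune tissue lies.

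Messenger RNA was counted per contig, a transcript sequence assembled from reads. Totals ran from 12794004 to 17422731 counts in the Rodeo libraries and from 9871623 to 24374444 in the controls, control 3 being the shallowest. Contigs detected in both groups were the rule: 64263 of 78435 contigs had a count in at least 1 Rodeo library and 64572 in at least 1 control, and 29539 had one in all 8. No contig had at least 10 counts in every Rodeo library and 0 in every control, nor the reverse (0 contigs each way). The identifiers are not paired with gene names in the files (0 of 78435 matched the RefSeq gene table of the species), so contigs appear under their identifiers, the label of the tissue was not checked against marker genes, and no pathway or cell type list was tested.

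Some head kidney libraries resembled trunk kidney libraries of another treatment label. Across 64 contigs that were abundant in some libraries and nearly absent in others in both tissues, 8 head libraries each had a mutual best partner among the trunk libraries, alike for 96.9% to 100% of the contigs. The other pairs of the 144 reached at most 85.9%. The pairs with the same treatment label in both tissues numbered 0 of 8. Among the libraries compared here, Rodeo 1 and Rodeo 3 matched trunk control 3 and trunk glyphosate 1, while controls 2, 3 and 4 matched trunk glyphosate 4, trunk Rodeo 1 and trunk Rodeo 2. Rodeo 2, Rodeo 4 and control 1 matched none, and whether their labels hold was not tested. Whether matched libraries come from the same fish, and whether any label differs from the treatment given, was not tested. If labels do differ, the tissue concerned cannot be told from the files. All groups below follow the titles.

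A block of contigs was chosen by its levels in the Rodeo and control libraries. Contigs were put in this block if they had a mean log2 count per 1000000 (CPM) of at least 1, an unadjusted p under 0.05, a fold change of more than 4, and all 4 Rodeo libraries beyond all 4 controls. On those terms 69 contigs were lower with Rodeo and 13 higher, and none of them passed the adjusted threshold in edgeR (adjusted p at least 0.923). DESeq2 called 20 of the 69 and 6 of the 13, and 34 of all 24463 tested contigs at that level. Of all 24463 tested contigs at that level, 3.21% had groups that did not overlap, 2.02% higher and 1.19% lower. A random split of 8 libraries into 4 and 4 sets a contig's groups apart with a probability of 0.0286. An unadjusted p under 0.05 with a fold change of more than 4 was found for 0.683%. The values that chose these contigs are the Rodeo and control levels, so what follows describes them and gives no test. Fold changes of the lower contigs lay between -5.19 and -2.01 on the log2 scale with a median of -2.81. As tissue was sequenced in bulk, fewer cells of a type and less RNA per cell cannot be told apart.

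Together the 69 lower contigs gave 126, 205, 360 and 642 CPM in Rodeo libraries 1 to 4, against 2425, 2444, 2708 and 1251 CPM in controls 1 to 4, on a scale shared by all 24 libraries. The groups do not overlap, by the choice of the contigs. Sums over the block, here and below, weigh its most abundant contigs most. Within the Rodeo group, Rodeo 4 was the highest of the 4 libraries for 54 of the 69 contigs (78.3%, against 22.3% of all 24463 tested contigs at that level), and Rodeo 1 the lowest for 48 (69.6%, against 28%). Within the controls, control 4 was the lowest for 44 (63.8%, against 25.8%). Many of the contigs thus shared an order of libraries inside each group. The choice named no library of a group, but it used these same values. Contigs can also share reads and do not serve as replicates, so the shared order is a description and no test.

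Head kidney glyphosate libraries entered the choice of the block only through the fit of 12 libraries, which sets the spread and the mean level; the fold change and the order of the libraries are those of Rodeo and control. Fitted on the 8 Rodeo and control libraries alone, the same terms gave 64 lower contigs, 60 of them among the 69. The 4 glyphosate libraries differed among themselves. Glyphosate 4 lay below all 4 controls for 66 of the 69 contigs (95.7%), where it did so for 17.5% of all tested contigs at that level. Its sum over the block was 143 CPM, inside the Rodeo range. The choice set the controls above Rodeo for these contigs, which can make values below all controls more frequent than among all contigs. Glyphosate 1, 2 and 3 gave sums of 2639, 3067 and 2554 CPM and lay below all controls for 7, 2 and 4 of the contigs (10.1%, 2.9% and 5.8%, against 15.2% to 25.3% of all). The same 3 libraries lay above all controls for 26, 33 and 25 of the 69 (37.7%, 47.8% and 36.2%, against 13.7%, 15.8% and 27.6% of all). Of the 12 head libraries, then, 5 were low, namely the 4 labelled Rodeo and 1 labelled glyphosate. Glyphosate 4 matched trunk control 2 in the pattern described above.

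**Figure D1:**
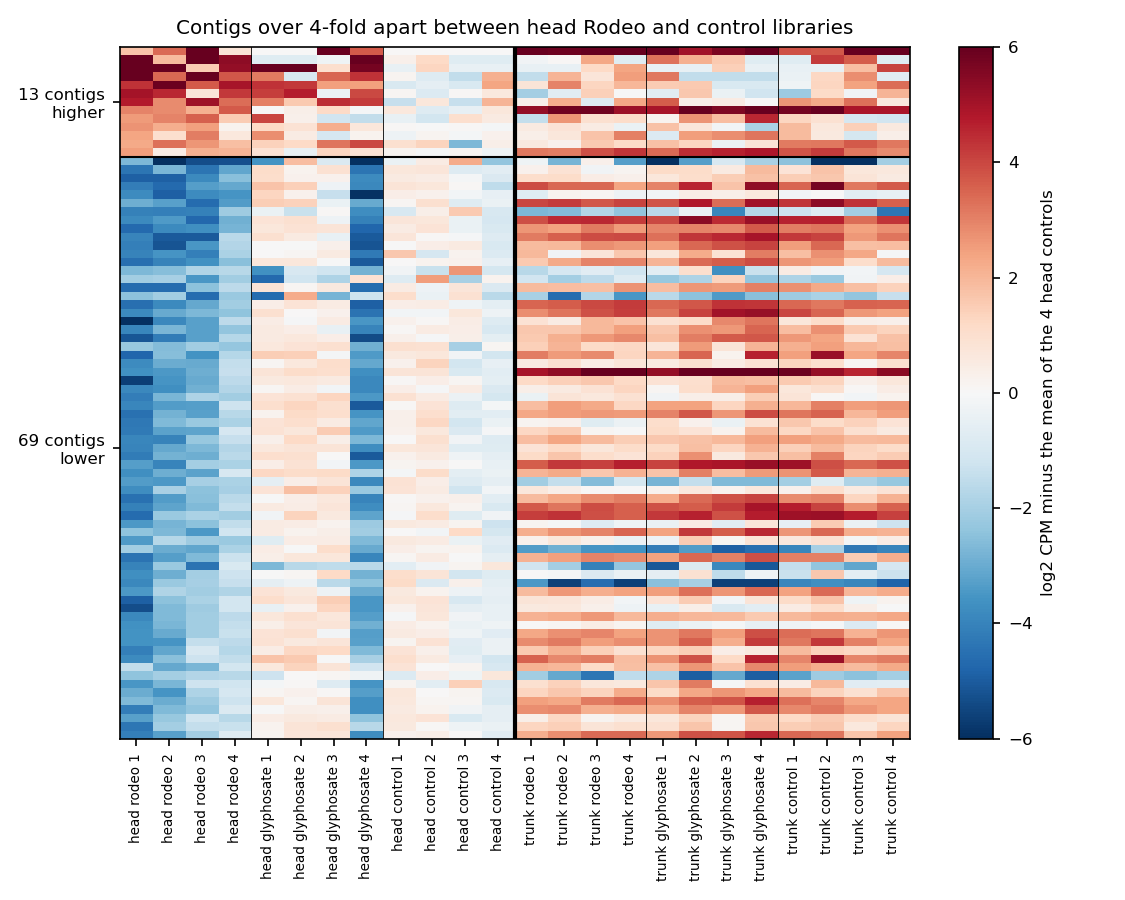
Heat map of the 13 contigs higher (top) and the 69 lower (bottom) in head Rodeo than in head control libraries, in all 24 libraries (columns). Colour gives log2 CPM minus the mean of the 4 head controls. The lower block is blue in the 4 head Rodeo libraries and in head glyphosate 4, and most of its contigs are red in the 12 trunk libraries.

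In each trunk library most of the 69 contigs stood above all 4 head controls, 39 at the fewest and 54 at the most. In trunk libraries the sum over the 69 contigs ran from 7066 to 11680 CPM with Rodeo, from 8813 to 22610 CPM with glyphosate and from 5161 to 13470 CPM in controls. A few contigs carry much of such a sum. In trunk glyphosate 4, contigs of the block reached 12.5 and 12.2 log2 CPM, where the median contig stood at 4.67. The median contig stood 2.87 times higher in the 12 trunk libraries than in the 4 head glyphosate libraries, against 0.877 times for all 24463 tested contigs at that level. Glyphosate 4, low for this block, is 1 of those 4 and lowers their mean. A ratio above 4 was found for 27 of the 69 (39.1%), against 7.7% of all. By the 8-fold rule given below, 14 of the 69 were trunk-abundant, against 779 of all 24463. Trunk Rodeo libraries lay above all head controls for 41 to 47 of the 69 contigs and trunk controls for 41 to 54, while each of the 12 trunk libraries lay below all head controls for 7 to 10 (10.1% to 14.5%). Of all tested contigs at that level, 28.5% to 34.8% lay above all head controls in a trunk library and 32.9% to 41.2% below them. By kind of identifier, 38 were LMB_Assem, 15 isotig and 16 contig sequences, and the 38 carried 30 different assembly numbers.

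The 13 higher contigs showed no such unity. Fold changes lay between 2.10 and 8.31 on the log2 scale. Against 0.877 for all tested contigs, their median ratio of trunk to head glyphosate level was 0.652, and 3 of 13 exceeded 4. Glyphosate libraries 1 to 4 lay above all controls for 10, 5, 8 and 10 of the 13, where 13.7% to 27.6% of all tested contigs at that level did. The choice set the controls below Rodeo for these contigs, which can make values above all controls more frequent. The share of all contigs is therefore no like background. Across the 4 Rodeo libraries no single one was highest or lowest for more than 6 of the 13.

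Counts of these contigs depend on which libraries enter. Leaving out one library at a time gave 62 to 159 lower contigs, the largest counts being 159 without Rodeo 4, 125 without Rodeo 2 and 105 without control 3. The same fits gave 15 to 43 higher contigs, with more than 1.5 times the 13 whenever a Rodeo or control library was left out (21 to 43). In the 2 Rodeo and 1 control libraries matched to no trunk library, 327 contigs were lower and 400 higher. With a Rodeo or control library left out, and more so with 2 libraries against 1, fewer orders of the libraries count as overlap. Such counts can rise for that reason alone.

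Over all contigs, libraries labelled Rodeo and control did not differ past the adjusted threshold. In edgeR's quasi-likelihood test 0 of 38656 tested contigs (0%) had an adjusted p under 0.05. The unadjusted p was under 0.05 for 1817 (4.7%), 878 of them higher (2.27%) and 939 lower (2.43%). All 4 Rodeo libraries lay beyond all 4 controls for 1209 contigs (3.13%), 697 higher (1.8%) and 512 lower (1.32%). DESeq2, the other tool run, called 50 contigs (0.129%), 14 higher and 36 lower (0.0931%). Of those 50, 49 had groups that did not overlap and 48 had an unadjusted edgeR p under 0.05. Of the 36 lower ones, 14 (38.9%) stood more than 4 times higher in trunk than in head glyphosate libraries. Of all 38656 tested contigs, 3068 reached that ratio. The edgeR count became 2 without Rodeo 2, 2 without glyphosate 4 (a library that only adds to the estimate of the spread) and 55 in the libraries matched to no trunk library, where the spread rests on 2 Rodeo libraries.

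Control libraries varied more among themselves than Rodeo libraries did, and control 3 stood apart from the rest. Pearson correlations of log2 CPM across contigs were 0.889 to 0.913 between Rodeo libraries, 0.813 to 0.912 between controls and 0.842 to 0.907 between a Rodeo library and a control. The median SD of log2 CPM over 24463 contigs was 0.436 in the Rodeo group and 0.5697 in controls, and 0.426 in controls without control 3. These values describe how alike the libraries were, and contigs do not serve as replicates. Without control 3 the number of contigs with an unadjusted p under 0.05 was 2840.

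Contigs far more abundant in trunk kidney were set apart from the others. A contig was called trunk-abundant if its mean over the 12 trunk libraries was at least 1 CPM. That mean also had to be at least 8 times its mean over the 4 head glyphosate libraries, with 0.5 CPM added to both. Neither compared group took part in this rule, but both took part in the filter on low counts. The rule took 3683 contigs, the nearest ones to the limit having ratios of 8.0004 and 7.9997. Of these, 591 had no count in any of the 8 libraries, 1616 had too few counts to be tested and 1476 were tested. Among those tested the unadjusted p was under 0.05 for 129 (8.74%, against 4.7% of all tested contigs), 53 higher and 76 lower with Rodeo. Their median log2 fold change was -0.01, as was that of all contigs (-0.01), with quartiles of -0.49 and 0.47, against -0.38 and 0.33. Trunk-abundant contigs past the adjusted threshold numbered 0 in edgeR and 13 in DESeq2, 11 of them lower, where DESeq2 called 50 of all 38656 tested contigs (0.129%). Contigs low in the glyphosate libraries could pass the filter through Rodeo or control libraries alone. All tested contigs are therefore no like background for the shares of this class.

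**Figure D2:**
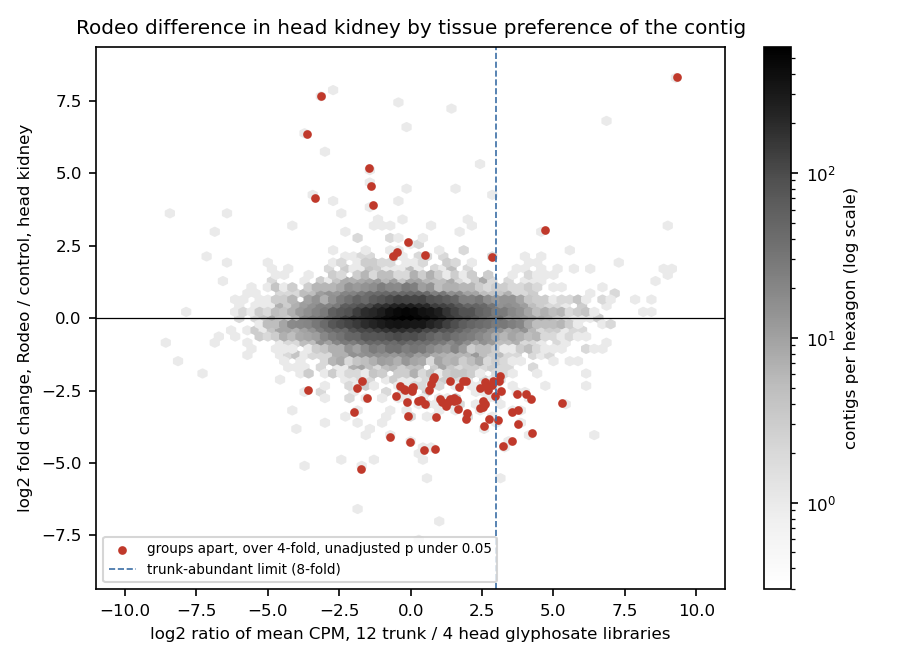
Log2 fold change of Rodeo over control in head kidney (vertical axis) against the log2 ratio of the mean CPM in 12 trunk libraries to that in 4 head glyphosate libraries (horizontal axis), for 24463 tested contigs with a mean log2 CPM of at least 1. Grey hexagons give the number of contigs, red points the 69 lower and 13 higher contigs described above, and the dashed line the 8-fold limit; the red points below 0 lie mostly to the right of a ratio of 1.

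In total the trunk-abundant contigs took 1.37%, 1.33%, 1.25% and 1.16% of the counts of Rodeo libraries 1 to 4, against 1.39%, 1.35%, 1.45% and 1.48% in controls 1 to 4. The groups overlapped by Rodeo 1 and control 2. The means were 1.28% ± 0.0945 with Rodeo and 1.42% ± 0.0580 in controls (SD, n = 4 each), a difference of -0.140 percentage points (two-sided p = 0.0571 by exact permutation; adjusted over 5 such values, 0.286). With 4 libraries against 4 the smallest p possible is 0.0286. With a limit of 4-fold instead of 8-fold the difference was -0.300 points and that smallest p was reached, as it was without Rodeo 1 (-0.172 points). With 32-fold it was 0.0168 points (exact permutation p = 0.400), and without the 10 most counted contigs of the class -0.0493 points (exact permutation p = 0.400).

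The mirror class, contigs at least 8 times higher in head glyphosate than in trunk libraries, held 747 contigs, of which 740 were tested. They took 9.41%, 8.37%, 10.1% and 14.1% of the counts in Rodeo libraries 1 to 4, against 9.14%, 8.28%, 11.3% and 6.89% in controls 1 to 4. The ranges overlapped widely (10.5% ± 2.51 with Rodeo and 8.91% ± 1.87 in controls; two-sided p = 0.371 by exact permutation, adjusted 0.857). Contigs with an unadjusted p under 0.05 numbered 54 (7.3%, against 4.7% of all tested contigs), 24 higher and 30 lower. The 20 most counted contigs of each library took 12.7% ± 3.42 with Rodeo and 11.7% ± 3.47 in controls (SD, n = 4 each; exact two-sided permutation p = 0.714). At an equal depth of 9871623 counts, 35612 ± 1839 contigs had at least 5 counts in Rodeo libraries and 35988 ± 4289 in controls (exact two-sided permutation p = 0.857).

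**Figure D3:**
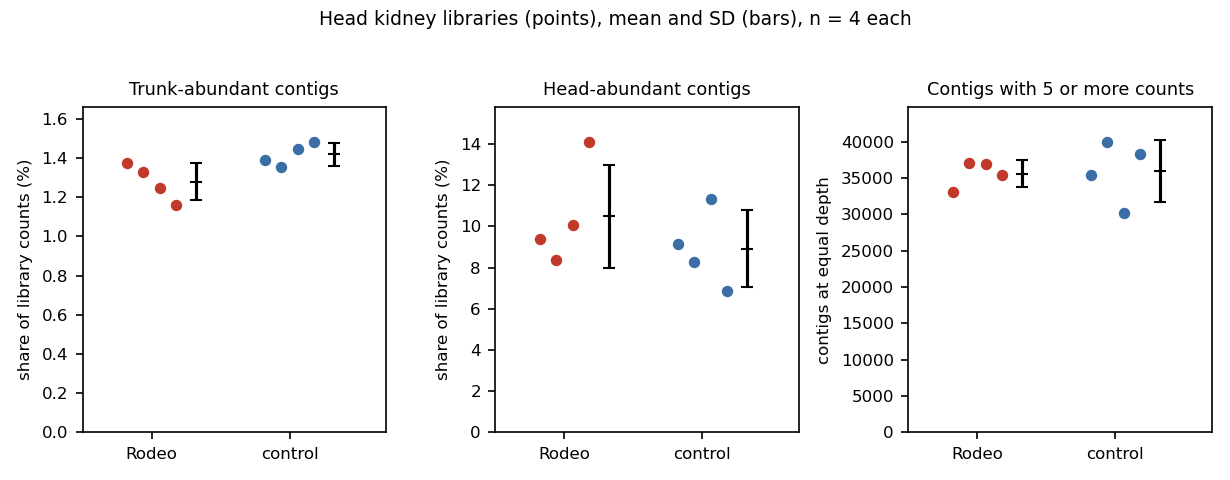
Share of library counts taken by trunk-abundant contigs (left) and head-abundant contigs (middle), in percent, and number of contigs with at least 5 counts at equal depth (right). Points are the 4 Rodeo and 4 control head kidney libraries, in replicate order, and bars give mean and SD; the trunk-abundant share ran from 1.16% to 1.37% with Rodeo and from 1.35% to 1.48% in controls.

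Contigs with the smallest p are given by class, with the levels of every library in CPM scaled within head kidney. Glyphosate libraries share the controls with the Rodeo comparison, so their values stand beside it without a comparison of the effects. No difference among the contigs named here passed the threshold in edgeR (adjusted p = 0.923 except where given), and 8 of the 10 passed it in DESeq2. Over all 38656 tested contigs DESeq2 called 50 (0.129%). The 10 were chosen by their small p in edgeR from the same counts, so their DESeq2 values are no independent test.

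Of the trunk-abundant contigs, LMB_Assem.3527.C1 was higher with Rodeo. It stood at 5.99, 5.33, 3.46 and 10.6 CPM in Rodeo libraries 1 to 4, at 0.716, 0.866, 1.60 and 0.592 CPM in the glyphosate libraries and at 1.11, 0.324, 0.463 and 1.14 CPM in controls. The Rodeo libraries do not overlap with either of the other groups (log2 fold change against controls 3.05, SE 0.587; DESeq2 adjusted p = 0.00105). In trunk kidney, on the scale of 24 libraries, it ran from 19.3 to 52.1 CPM and exceeded every head Rodeo library (at most 8.44 CPM). The trunk Rodeo and control groups themselves differed by 0.03 on the log2 scale (SE 0.362). The difference between the 2 Rodeo effects, head minus trunk, was 3.00 (SE 0.621; edgeR adjusted p = 0.170).

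The contig contig23756 met the trunk-abundant rule through a few trunk libraries. In head kidney it stood at 450, 1.20, 317 and 243 CPM in Rodeo libraries 1 to 4, between 0 and 0.769 CPM with glyphosate, and at 0, 5.80, 1.16 and 1.91 CPM in controls. Rodeo 2 lay inside the control range and the other 3 Rodeo libraries above it (log2 fold change 6.76, SE 1.37; DESeq2 adjusted p = 0.0617), and without control 2 the log2 fold change was 7.96. In trunk kidney 4 libraries stood at 196 to 275 CPM, one of them a control, 2 with glyphosate and 1 with Rodeo, and the others at 6.65 CPM or less. The on or off state of this contig thus did not follow the treatment label in trunk kidney. On the scale of 24 libraries it was high in the matched Rodeo 1 and trunk control 3 (379 and 196 CPM). It was also high in Rodeo 3 and trunk glyphosate 1 (252 and 227 CPM). The other matched pairs were low in both tissues, at 5.04 CPM or less. This contig met the rule for the contigs that set the pairs, so the agreement is no test.

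Lower among the trunk-abundant contigs was isotig131305. Rodeo libraries held 0.471, 0.658, 0.212 and 1.05 CPM, glyphosate libraries 16.1, 15.6, 6.42 and 0.364 CPM, and controls 13.9, 12.7, 6.60 and 4.00 CPM. All Rodeo libraries and glyphosate 4 lay below all controls (log2 fold change -3.97, SE 0.860; DESeq2 adjusted p = 0.00104). The Rodeo values rest on 33 counts in all, the control values on 702. Its trunk kidney levels were 71.6 to 298 CPM, and the trunk groups differed by -0.01 (SE 0.357).

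A second, contig52500, also of the block, followed the same libraries at a lower level. It stood at 0.269, 0.180, 0 and 0.175 CPM with Rodeo, at 8.59, 7.36, 1.98 and 0.228 CPM with glyphosate and at 3.08, 5.40, 1.74 and 2.09 CPM in controls. Rodeo libraries held 9 counts of it in all, close to the limit of 3 counts in a library (0.180 to 0.263 CPM), so the fitted log2 fold change of -4.25 (SE 0.997) is loosely determined. The trunk libraries ran from 24.4 to 99.9 CPM.

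Of the contigs that were neither trunk-abundant nor on/off, LMB_Assem.6273.C1 was the most abundant named here. Rodeo libraries 1 to 4 held 2084, 2165, 1612 and 2072 CPM, glyphosate libraries 839, 569, 1142 and 923 CPM, and controls 1266, 792, 584 and 494 CPM. Every Rodeo library lay above every control and every glyphosate library. The means were 1983 ± 251 CPM with Rodeo and 784 ± 345 CPM in controls (SD, n = 4 each; log2 fold change 1.34, SE 0.301; DESeq2 adjusted p = 0.0187). In trunk kidney it ran from 813 to 2542 CPM, where the 8 head libraries stood at 412 to 1875 CPM. Without the 5 matched libraries among the 8 compared the log2 fold change was 0.77, from 2 Rodeo libraries against 1 control.

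LMB_Assem.0.C339 was close to absent in controls. It stood at 12.6, 11.97, 0.353 and 6.22 CPM with Rodeo, at 12.2, 23.8, 0.189 and 7.96 CPM with glyphosate and at 0, 0.252, 0 and 0 CPM in controls. Controls held 7 counts in all, every one in control 2, and Rodeo 3 held 5 counts, so the groups are apart by a narrow margin (log2 fold change 6.35, SE 1.38; DESeq2 adjusted p = 0.0251). With only the 8 compared libraries the filter on low counts left this contig out. It was thus tested only because the glyphosate libraries were in the fit. Without control 2 all remaining controls are at 0 and the fitted value was 9.95, which then depends on the prior count. The same contig was low in trunk kidney, at 2.09 CPM or less in all 12 libraries. Rodeo 3 and glyphosate 3 were low, and the other 3 libraries of each exposed group were high.

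Lower with Rodeo among these contigs was LMB_Assem.9524.C1. It stood at 4.17, 7.42, 9.03 and 16.7 CPM in Rodeo libraries 1 to 4, at 191, 198, 180 and 3.78 CPM with glyphosate and at 157, 188, 88.1 and 57.7 CPM in controls. The 4 Rodeo libraries and glyphosate 4 formed one low set, and the other 7 head libraries a high one, with a gap from 16.7 to 57.7 CPM between them (log2 fold change -3.72, SE 0.805; DESeq2 adjusted p = 0.0193). Its trunk kidney levels were 497 to 1194 CPM, 5.87 times the head glyphosate level and so below the 8-fold limit. Without glyphosate 4 in the fit its edgeR adjusted p was 0.0108, the lowest of the 12 fits with one library left out (highest 0.999992).

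The contig isotig104925, also of the block, was low in the same 5 head libraries. Rodeo libraries held 1.14, 2.57, 1.98 and 3.68 CPM, glyphosate libraries 29.1, 23.7, 13.2 and 1.05 CPM, and controls 19.8, 25.5, 25.6 and 9.56 CPM. Glyphosate 4 lay with the Rodeo libraries, and Rodeo 4 was the highest of its group (log2 fold change -3.10, SE 0.700; DESeq2 adjusted p = 0.00321). Its trunk kidney levels were 38.997 to 178 CPM, above all 8 head libraries on that scale (at most 22.2 CPM). The trunk Rodeo and control groups differed by -0.02 on the log2 scale (SE 0.400), and the Rodeo effect in head minus that in trunk was -3.10 (SE 0.820; edgeR adjusted p = 0.480).

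**Figure D4:**
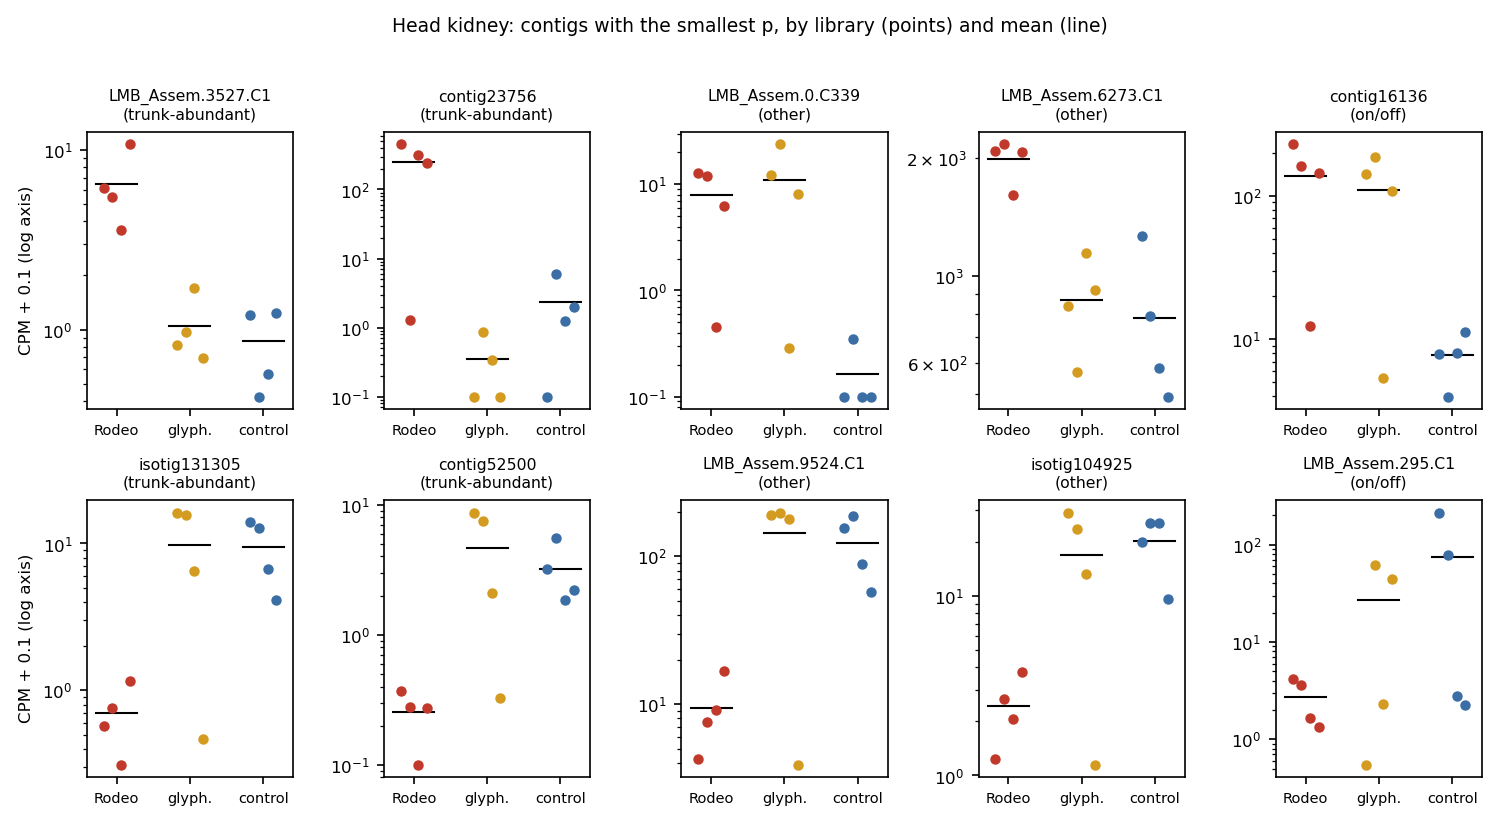
CPM plus 0.1 on a log axis in the 4 Rodeo, 4 glyphosate and 4 control head kidney libraries, for the 10 contigs with the smallest p in their class, higher with Rodeo in the top row and lower in the bottom row. Points are libraries in replicate order and lines are means of the CPM. In the first 4 panels of the bottom row, all contigs of the block of 69, glyphosate 4 lies with the Rodeo libraries.

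Within the set that the rule below kept, contigs abundant in some head libraries and nearly absent in others were largely unrelated to the label. Such on/off contigs, 63 in head kidney, were split by a jump of over 3 log2 units, whatever the group. The sets held at least 2 high and 2 low libraries. The log2 CPM values also had to average at least 1.5 over the head libraries. LMB_Assem.0.C339 and contig23756, higher with Rodeo, show such a jump but are not among the 63, so the counts below do not cover them. Rodeo libraries 1 to 4 were in the high state for 44, 54, 47 and 31 of the 63, and controls 1 to 4 for 46, 33, 33 and 50. More Rodeo than control libraries were high for 30 contigs, fewer for 20 and as many for 13. The number high in all 4 Rodeo libraries and low in all controls was 0, as was the reverse. The limit on the average leaves out contigs close to absent in most head libraries, unless the others are very high. Both numbers are therefore partly set by the rule. Groups lay apart for 1 of the 63 (1.59%, against 3.13% of all tested contigs).

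That one was contig16136. It stood at 228, 161, 12.3 and 144 CPM with Rodeo, at 141, 185, 5.24 and 108 CPM with glyphosate and at 7.77, 3.89, 7.99 and 11.1 CPM in controls. Rodeo 3 was in the low state at a level just above control 4 (log2 fold change 4.15, SE 0.879; DESeq2 adjusted p = 0.0163). In the other direction, LMB_Assem.295.C1 stood at 4.10, 3.53, 1.55 and 1.23 CPM with Rodeo, at 0.448, 61.2, 2.22 and 43.8 CPM with glyphosate and at 213, 78.3, 2.66 and 2.15 CPM in controls. Controls 3 and 4 lay inside the Rodeo range (log2 fold change -4.82, SE 1.45; edgeR adjusted p = 0.970, DESeq2 adjusted p = 0.164). Without control 1 its log2 fold change was -3.40.

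Whether the Rodeo difference itself differed between head and trunk kidney was tested over all 24 libraries, by their labels. The fit took the libraries as independent, and the matched pairs of head and trunk libraries did not enter it. In edgeR 3 of 52407 contigs passed the adjusted threshold (0.00572%), all with a higher value for head minus trunk. The unadjusted p was under 0.05 for 6.04%. For LMB_Assem.10373.C1 the difference of the effects was 2.87 (SE 0.474; edgeR adjusted p = 0.0492). Head Rodeo libraries held 102, 172, 239 and 83.5 CPM of it and head controls 65.2, 72.1, 68.4 and 50.9 CPM, without overlap (log2 fold change 1.22, SE 0.288; edgeR adjusted p = 0.923 within head kidney). On the scale of 24 libraries it averaged 23.8 ± 7.08 CPM in trunk Rodeo libraries and 75.5 ± 25.5 CPM in trunk controls (SD, n = 4 each). Within trunk kidney that difference did not pass the threshold either (log2 fold change -1.66, edgeR adjusted p = 0.402). With another scaling of the libraries 2 of the 3 calls remained.

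The other 2 were LMB_Assem.6831.C1 and LMB_Assem.6761.C1, both lower with Rodeo in trunk kidney. In head kidney LMB_Assem.6831.C1 stood at 57.4, 61.1, 86.1 and 34.9 CPM in Rodeo libraries and at 31.6, 41.6, 43.9 and 13.03 CPM in controls. Rodeo 4 lay inside the control range and the other 3 above it. LMB_Assem.6761.C1 stood at 43.4, 49.4, 66.5 and 29.3 CPM in Rodeo libraries and at 31.8, 28.4, 26.97 and 22.9 CPM in controls, with Rodeo 4 again among the controls. Within head kidney the log2 fold changes were 0.88 (SE 0.391) and 0.78 (SE 0.337; edgeR adjusted p = 0.998 for both). Without the head libraries matched to a trunk library of another label, 0 contigs passed the test of the difference.

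**Figure D5:**
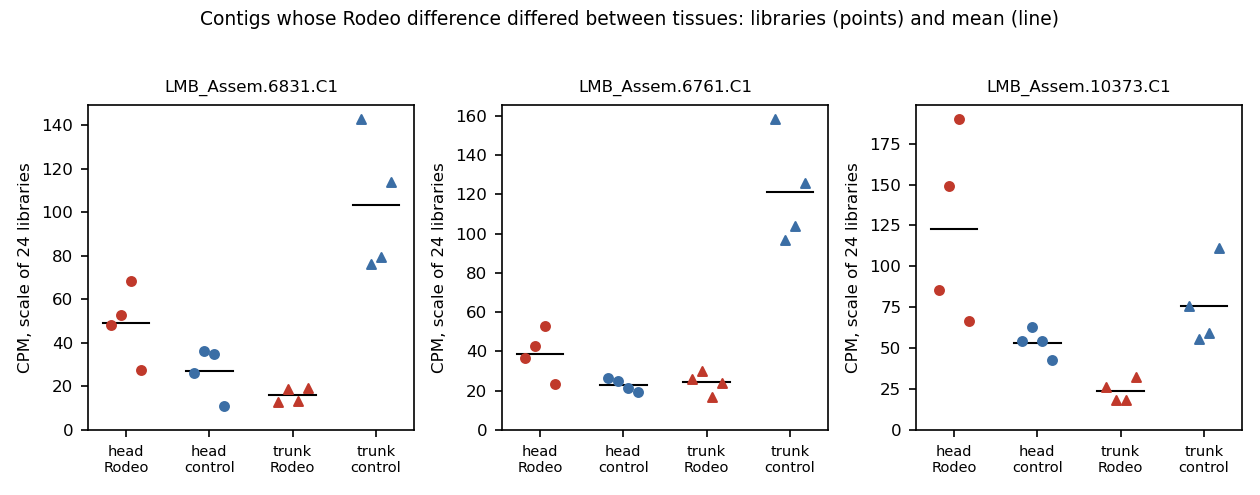
CPM on the scale of 24 libraries in head Rodeo, head control, trunk Rodeo and trunk control libraries, for the 3 contigs whose Rodeo difference differed between tissues. Points are libraries (circles head, triangles trunk) in replicate order and lines are means; Rodeo means lie above controls in head kidney and below them in trunk kidney.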

How the data were processed

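The deposited values are whole-number read counts per contig that the authors had not normalized, 1 list a library, with contigs at 0 left off and set to 0 here. Per the labels' protocols, libraries came from poly(A) RNA with a directional kit. The submitters' processing notes name cutadapt, SAMtools, edgeR and DESeq. No aligner, counter or assembly source is given in the sources used here. Contigs of similar sequence can share reads.

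edgeR 4.0.16 (R 4.3.3) fitted all 12 head kidney libraries at once, after filterByExpr and with TMM scaling, and its quasi-likelihood test was adjusted by Benjamini-Hochberg over 38656 contigs (threshold 0.05). The biological coefficient of variation was 0.572. DESeq2 1.42.0 was the other tool and left 109 adjusted p-values empty. The SE was taken as the fold change over the root of F. Without molecular identifiers, the limit of 3 counts in a library covers counting error only. The SE and the p-values also take in the spread among libraries. Libraries within the Rodeo group and within the control group differed far beyond sampling noise (chi-square per degree of freedom 37.9 or more). None of these was thus a duplicate of another in its group. Other pairs of libraries were not checked in this way. The test was checked on simulated counts.

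Contigs named were, at a mean log2 CPM of at least 1, the 2 higher and 2 lower with the smallest p among trunk-abundant contigs and among the others, and 1 each way among on/off contigs. The 3 contigs of the tissue test and the block of 69 and 13 were chosen after their values were seen. The members and lists were chosen with earlier results of these data known.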

Additional observations from a re-analysis of the deposited data

Results flagged for a closer look

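A test for a library far from the other 3 of its group was applied to 34 groups of 4 values, of which chance would mark about 1 in 20. It marked 2. LMB_Assem.0.C339 stood at 0.252 CPM in control 2 and at 0 in the other controls. With the other controls at 0, any count in control 2 would have been marked. LMB_Assem.6273.C1 stood at 1612 CPM in Rodeo 3, below the other Rodeo libraries and above all controls. It passed the limit of the test narrowly (0.831 against 0.829).

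By the labels, the Rodeo difference differed between head and trunk kidney for 3 contigs in the test of the difference. That test took the 24 libraries as independent. The differences, head minus trunk, were 3.55 for LMB_Assem.6831.C1, 3.09 for LMB_Assem.6761.C1 and 2.87 for LMB_Assem.10373.C1 on the log2 scale. In each, the head kidney mean was higher with Rodeo and the trunk kidney mean lower.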

How the results depend on the processing

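The count of contigs past the adjusted threshold, 0 in edgeR, was 50 in DESeq2, 27 with no filter on low counts, 3 with only the 8 compared libraries and 55 without the matched libraries. It was 0 to 2 with one library left out, and 0 with 2 other scalings and a stricter filter. With the replicate number as a block it was 1 (LMB_Assem.0.C339). Deviations of same-numbered libraries correlated at r -0.249 to 0.0515 (0 of 4 pairs above 0.1). Differently numbered pairs ran from -0.328 to 0.373. Whether same-numbered libraries share a tank or run was not tested. Contigs with an unadjusted p under 0.05 numbered 4272 with no filter and 1528 to 2840 with one library left out. For trunk-abundant contigs these counts were 331 and 110 to 152, and for the others 3933 and 1404 to 2691. A class limit of 4-fold gave 255 and one of 32-fold 31 trunk-abundant contigs.

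The trunk-abundant share differed by -0.323 points with the class set on all 12 head libraries and by -0.172 to -0.100 with one library left out. The 4-fold (-0.300) and 32-fold (0.0168) limits are given above. The head-abundant share, 1.58 points higher with Rodeo, became -0.0255 with a limit of 32-fold and -0.207 without its 10 most counted contigs, and 0.372 to 2.39 with one library left out. The difference in detected contigs, -376, became 2680 at a minimum of 1 count and ran from -2309 to 957 with one library left out. On/off contigs with groups apart numbered 2 with a gap over 2 and 0 with a gap over 4. The 69 lower and 13 higher contigs became 327 and 400 without the matched libraries and 62 to 159 and 15 to 43 with one library left out. These alternatives, and the tissue test without matched libraries (0 contigs, against 3), were added after seeing the data. That test gave 123 contigs in DESeq2, all 3 among them, and 2 to 4 with one head library left out. The 10 named contigs kept their direction in each alternative that gave a value. LMB_Assem.0.C339 gave none with only the 8 compared libraries, where the filter on low counts left it out. The cause of these changes was not tested.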
